A study of Mus musculus with 24 samples.

Results

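Imprinted genes are expressed mainly from the copy inherited from a single parent, and many of them set the growth of the embryo, the placenta and postnatal stem cells. The group described here was picked around Peg3, a paternally expressed zinc finger gene: the rule names 10 genes, and a gene is read from the probe set that has its symbol and no other, or the brightest of these where there are several. Of the 10 genes, 9 were measured, each by 1 probe set: Peg3, Plagl1, Grb10, Cdkn1c, Ndn, Mest, Igf2, Dlk1 and Meg3. H19 had no probe set with it as the sole symbol and was not measured. The 9 stand among 19937 genes read in the same way. Peg3 was chosen by its higher level in control GFP-positive basal cells, so its values there are a description with no test, as are all values of the comparison that selected it.

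The samples were mammary epithelial cells of mice of a mixed FVB/C57BL6 background, 4 weeks after tamoxifen. All mice carried Lgr5-creERT2, a tamoxifen-activated Cre recombinase driven from the Lgr5 locus, and mutant mice also carried the PIK3CA H1047R transgene, an activated form of the catalytic subunit of PI3 kinase. Each replicate is a pool of 2 to 3 estrus-synchronised mice, and the 3 replicates come from 3 separate sortings, with RNA of 250 sorted cells amplified per array. There were 24 Affymetrix mouse Gene 1.0 ST arrays in 8 groups of 3. The basal gate (CD45 negative, CD24 low, Sca1 negative) was split into GFP-negative and GFP-positive cells in both genotypes. The luminal gate (CD45 negative, CD24 high) was split into Sca1-negative and Sca1-positive cells. Control luminal cells were GFP-negative and mutant luminal cells GFP-positive, so that genotype and GFP state cannot be told apart there. GFP marks Lgr5 expression in controls and Lgr5 expression, the transgene or both in mutants, so the basal GFP-positive gate also differs with the genotype.

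The gene products act at successive steps of growth control. Igf2 encodes a growth factor that signals through the IGF1 and insulin receptors to PI3 kinase, Dlk1 a Notch-like membrane protein, and Grb10 an adaptor that binds those receptors and limits their signal. Peg3 and Plagl1 encode zinc finger transcription factors, and Plagl1 is known as a regulator of other imprinted genes. Cdkn1c encodes the cyclin-dependent kinase inhibitor p57, Ndn encodes necdin, a growth-restraining protein of the MAGE family, and Mest a hydrolase-like protein of the endoplasmic reticulum. Meg3 and H19 make long non-coding RNAs. Expression from these loci depends on DNA methylation at CG dinucleotides of control regions.

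Several of the genes are neighbours. On mouse build GRCm38.p6, Peg3 lies at chr7:6703892-6730462, Ndn at chr7:62348277-62349928, Igf2 at chr7:142650768-142666816 and Cdkn1c at chr7:143458339-143461059. H19 lies beside Igf2. Dlk1 (chr12:109452485-109463336) and Meg3 (chr12:109540996-109571729) form another pair. Plagl1 (chr10:13090832-13131694), Grb10 (chr11:11930499-12037428) and Mest (chr6:30733506-30748466) lie on chromosomes of their own. The start-site windows below are those of Peg3, around which the group was picked, Plagl1, its other transcription factor, and Grb10, which had the largest tested mutant effect of the members; Grb10 is shown at both of its annotated starts. Each runs from 250 bases before to 50 after a RefSeq start on GRCm38.p6, 5′ to 3′ along the gene's strand, with CG dinucleotides in capitals.

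Peg3 (chr7:6730370-6730669, minus strand): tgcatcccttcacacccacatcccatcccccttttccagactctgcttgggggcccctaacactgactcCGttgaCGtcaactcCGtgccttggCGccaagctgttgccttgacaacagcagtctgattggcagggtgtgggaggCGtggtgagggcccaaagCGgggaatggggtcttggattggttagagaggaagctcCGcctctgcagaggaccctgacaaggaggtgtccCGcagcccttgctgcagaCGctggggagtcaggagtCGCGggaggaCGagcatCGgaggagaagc
Plagl1 (chr10:13090582-13090881, plus strand): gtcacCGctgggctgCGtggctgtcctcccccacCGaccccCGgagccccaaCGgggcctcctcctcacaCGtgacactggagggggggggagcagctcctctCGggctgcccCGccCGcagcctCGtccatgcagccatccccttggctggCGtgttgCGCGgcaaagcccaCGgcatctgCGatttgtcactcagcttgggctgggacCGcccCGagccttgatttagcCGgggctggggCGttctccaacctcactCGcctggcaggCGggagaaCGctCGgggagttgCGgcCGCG
Grb10, first start (chr11:12037371-12037670, minus strand): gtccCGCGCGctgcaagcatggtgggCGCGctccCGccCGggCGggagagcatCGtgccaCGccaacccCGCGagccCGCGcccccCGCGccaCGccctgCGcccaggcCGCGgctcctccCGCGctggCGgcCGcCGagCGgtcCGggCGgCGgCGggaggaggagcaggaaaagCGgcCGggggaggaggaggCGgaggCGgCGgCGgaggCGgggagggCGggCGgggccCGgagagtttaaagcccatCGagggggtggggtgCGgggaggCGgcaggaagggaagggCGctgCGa
Grb10, second start (chr11:12027922-12028221, minus strand): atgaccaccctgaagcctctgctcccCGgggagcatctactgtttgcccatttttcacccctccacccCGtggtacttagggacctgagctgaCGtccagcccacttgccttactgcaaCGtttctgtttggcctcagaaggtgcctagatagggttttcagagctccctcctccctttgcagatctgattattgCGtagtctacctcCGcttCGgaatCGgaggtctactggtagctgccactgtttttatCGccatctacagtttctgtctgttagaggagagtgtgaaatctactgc

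The RefSeq table held 15 windows of 300 bases for 8 of the members. Of these windows, 12 had more CG dinucleotides than the median of 7 over all 32851 promoters. The windows are not independent. Among the 12 are 2 Mest windows that nearly coincide (chr6:30737800-30738099 and chr6:30737803-30738102). The first Grb10 start had the most, with 45, more than 98.1% of all promoters, while the second had 9. Plagl1 had 26 and Peg3 13. The Peg3, Plagl1 and Grb10 windows held none of 3 short motifs searched on both strands, the FOXO core TGTTTAC (in 3.65% of all promoters), the TCF/LEF core CTTTGA (16%) and the YY1 core GCCATNTT (6.05%). Among the other windows, the Dlk1 window held 2 FOXO cores, and 1 window each of Igf2 and Meg3 held a TCF/LEF core. No measurement of methylation or of factor binding was made, and a match in letters is not a binding site.

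Values are given on the log2 scale of the deposited table, and levels of different genes cannot be ranked from them. Arrays of a group correlated at 0.934 to 0.979 across genes, and the median of all values, 4.45, serves here as the line under which a probe set is called dim. Krt5 and Krt14, keratins of basal cells, stood at 11.06 or higher in all 12 basal arrays, and Krt8 and Krt18, luminal keratins, at 12.38 or higher in all 12 luminal arrays. Each was also read in the other gate. Krt8 was 10.23 to 11.28 and Krt18 8.77 to 11.19 in basal arrays, and Krt5 and Krt14 reached 8.94 and 9.18 in mutant luminal arrays. Ptprc, the gene of CD45, was at 4.47 or lower in all 24 arrays. Mean levels of the leukocyte and endothelial marker lists were 4.14 to 4.46 and 4.02 to 4.46 over all arrays, near that line. Pecam1, an endothelial marker, read 6.25 in control luminal Sca1-positive replicate 3. Lgr5 was at 9.14 or higher in control basal GFP-positive arrays and at 8.83 or lower in the GFP-negative ones, without overlap. In mutant basal arrays Lgr5 was 7.29, 6.08 and 5.53 in GFP-positive cells and 7.18, 7.29 and 7.55 in GFP-negative cells. The mean was thus lower in the mutant GFP-positive cells (6.30 against 7.34).

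**Figure D1:**
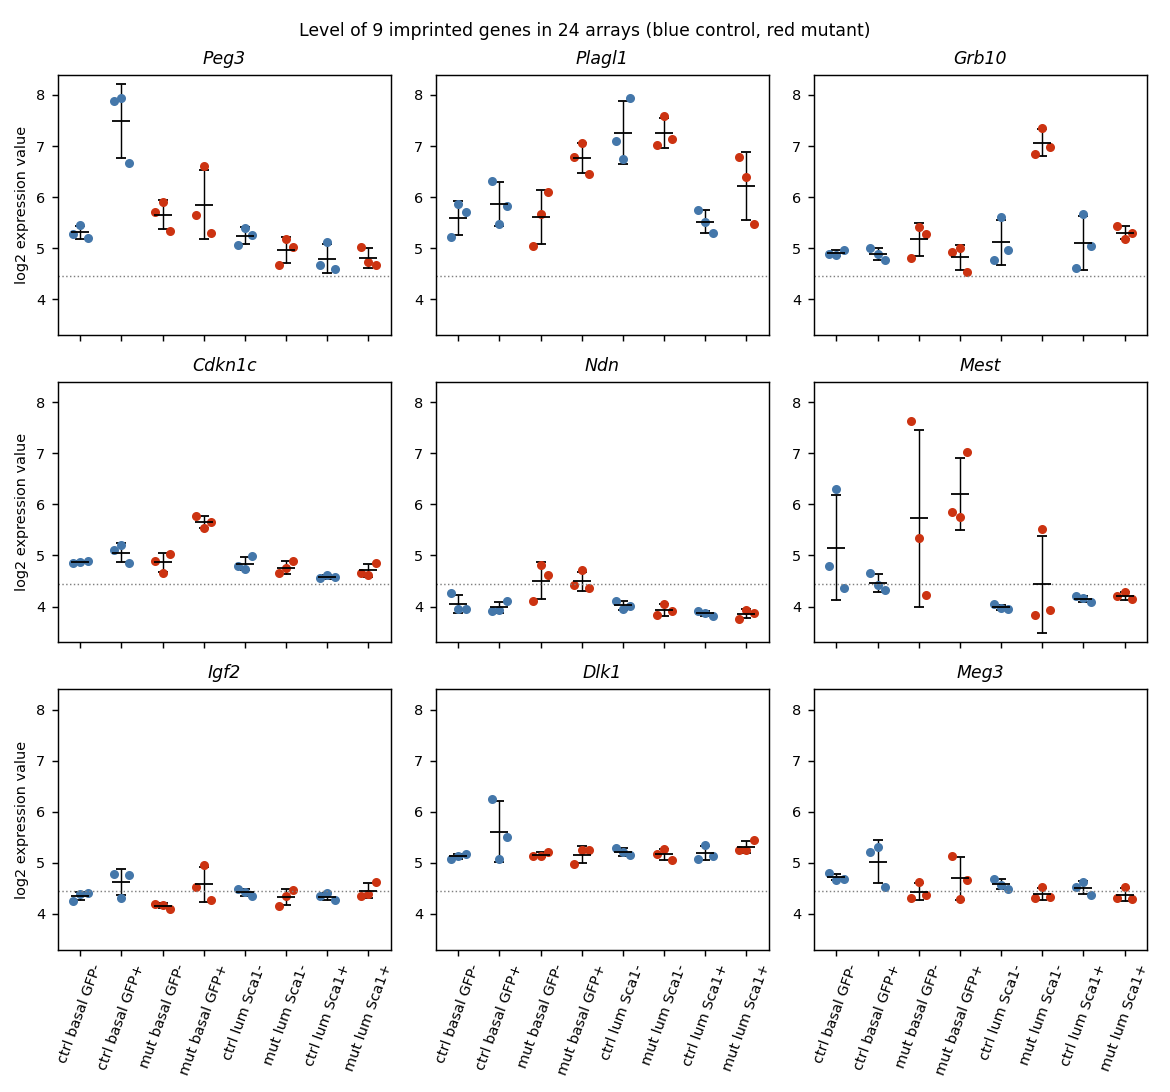
Log2 expression value (vertical axis) of the 9 measured imprinted genes in each of 24 arrays, by sorted group (horizontal axis; ctrl control, mut mutant, lum luminal). Points are arrays, bars the mean and SD of 3, and the dotted line the median of all values, 4.45. Peg3 is highest in control basal GFP-positive arrays, Cdkn1c in mutant basal GFP-positive arrays and Grb10 in mutant luminal Sca1-negative arrays.

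Peg3 was above the dim line in all 24 arrays and was highest in control basal GFP-positive cells. Its levels there were 7.88, 7.94 and 6.66, against 5.28, 5.45 and 5.20 in control basal GFP-negative cells. All 3 GFP-positive arrays lay above the GFP-negative ones, and replicate 3 was over 1 log2 unit below the other two. The mean difference was 2.18 (SE 0.31), a 4.54-fold higher level. By size it ranked 7 of 19937 genes in that comparison, in which 1.25% of all genes passed the adjusted p of 0.05; the gene was picked for this difference. In mixed RNA of 250 cells, fewer cells with the transcript and less transcript per cell cannot be told apart.

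In mutant basal cells the Peg3 levels were close in both GFP states. GFP-positive cells had 5.66, 6.60 and 5.30, and GFP-negative cells 5.70, 5.91 and 5.34. These ranges overlap, and the difference of 0.20 (SE 0.31, 95% interval -0.46 to 0.86) did not pass limma's test (adjusted p = 0.918). Mutant GFP-positive cells were 1.64 lower than control GFP-positive cells (a difference of -1.64, SE 0.31) and 0.54 higher than control GFP-negative cells, both given without a test. The highest mutant array, 6.60, lay just under the lowest control GFP-positive array, 6.66.

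Mutant luminal cells had less Peg3 than mutant basal cells, while the control gates overlapped in part. The 12 luminal arrays ranged from 4.60 to 5.39, with a median of 5.02, and the 12 basal arrays from 5.20 to 7.94, with a median of 5.68. That basal range includes the control GFP-positive arrays by which Peg3 was chosen. Control basal GFP-negative arrays, at 5.20 to 5.45, overlapped control luminal Sca1-negative arrays, at 5.06 to 5.39. They lay above the control Sca1-positive arrays, at 4.60 to 5.11. Among mutant arrays, which played no part in the choice of the gene, every luminal array lay below every basal array. The difference was -0.87 (SE 0.22), a 1.83-fold lower level (limma, adjusted p = 0.0102). The luminal groups did not differ by genotype beyond their spread: the mutant minus control difference was -0.28 (95% interval -0.94 to 0.38) in Sca1-negative and 0.01 (-0.65 to 0.67) in Sca1-positive cells. In the order of the 8 group means, from 7.49 to 4.79, all neighbours after the first pair overlapped.

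The other members did not separate the GFP states of control basal cells as Peg3 did. Of the 9 measured genes, 6 had a higher mean in GFP-positive cells, and the median difference was 0.27, against 0.05 for all genes. Both figures include Peg3, which was picked for its difference here, so they say little of the others. Dlk1 was 0.48 higher, Meg3 0.30, Plagl1 0.28, Igf2 0.27 and Cdkn1c 0.18. Mest was 0.69 lower (a difference of -0.69), and Ndn and Grb10 differed by -0.07 and -0.03. For these 8 genes at least 1 array of each group overlapped the other. This comparison chose the group, so none of these differences was tested.

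The share of members that passed the test was read against the share of all genes in each comparison. For mutant against control basal GFP-positive cells, 2 of 8 tested members rose and none fell, while 12.6% of all genes were called. Basal GFP-negative cells gave 0 of 8 (0.0602% of all genes), luminal Sca1-negative cells 1 of 9 (0.727%) and luminal Sca1-positive cells 0 of 9 (0.777%). GFP-positive against GFP-negative mutant basal cells gave 1 of 9 (2.51%). Sca1-positive against Sca1-negative luminal cells gave 1 of 9 in controls (3.69%) and 1 of 9 in mutants (3.66%). Luminal against basal cells gave 1 of 8 in controls (19.3%) and 5 of 9 in mutants (15.4%). The mutant effect differed between GFP states for 0 of 8 basal results (1.07%) and between Sca1 states for 1 of 9 luminal results (0.161%). Several of these comparisons share arrays, and the members were picked with results of these data known, so the counts are descriptions.

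**Figure D2:**
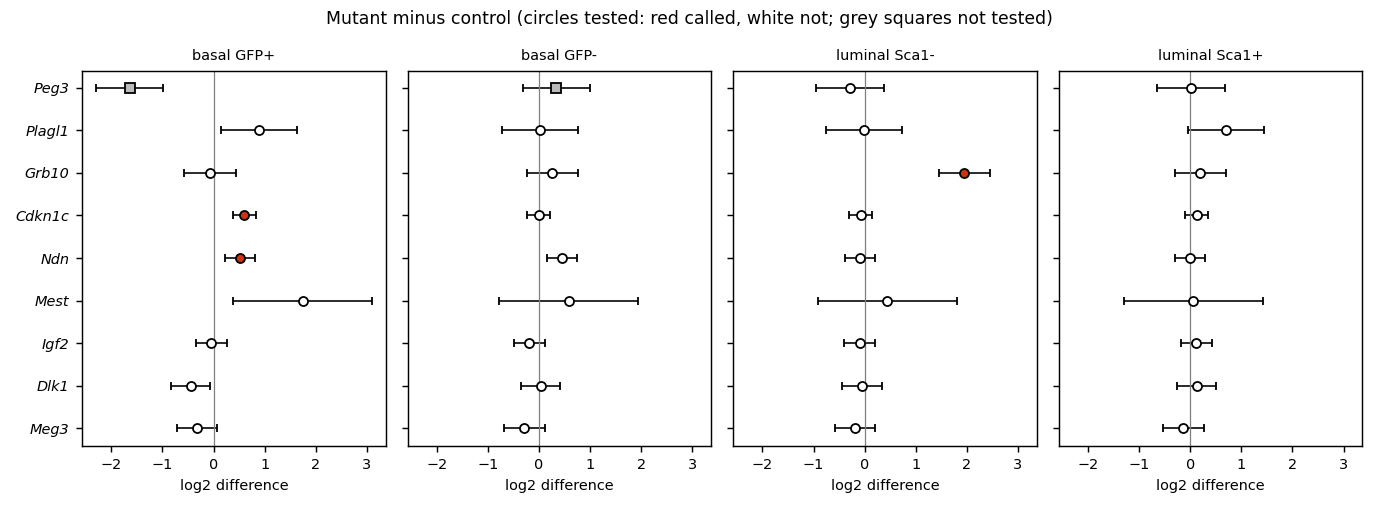
Mutant minus control log2 difference (horizontal axis) of each gene (vertical axis) in the 4 sorted populations, with 95% intervals from limma. Red circles passed an adjusted p of 0.05, white circles did not, and grey squares were not tested. Cdkn1c and Ndn are red in basal GFP-positive cells at 0.60 and 0.51, and Grb10 in luminal Sca1-negative cells at 1.95.

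Grb10, the adaptor that restrains insulin and IGF1 receptor signalling, rose 3.87-fold in mutant luminal Sca1-negative cells. The mutant arrays read 6.85, 7.36 and 6.99, and the control arrays 4.76, 5.62 and 4.96. The groups did not overlap, and the 3 mutant arrays lay above the other 21 arrays of the study, whose highest value was 5.66. The difference was 1.95 (SE 0.24; limma, adjusted p = 0.000262). In a fit of these 6 arrays alone the same difference had an adjusted p of 0.0825.

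The Grb10 difference was not seen at that size in luminal Sca1-positive cells. Mutant arrays there read 5.43, 5.19 and 5.30, within the control range of 4.61 to 5.66, and the difference was 0.20 (95% interval -0.31 to 0.70; limma, adjusted p = 0.973). Within mutant luminal cells, Sca1-positive arrays were 1.76 below Sca1-negative ones (a difference of -1.76, SE 0.24; limma, adjusted p = 0.00021), while in controls the difference was -0.01 (95% interval -0.51 to 0.50). Over both gates, mutant luminal cells were 1.19 above mutant basal cells (SE 0.17; limma, adjusted p = 5.03e-05). The test of the difference between both mutant effects gave -1.75 (SE 0.34; limma, adjusted p = 0.0425). That call is close to the threshold: the adjusted p was 0.0557 after quantile normalization, 0.301 with the 4 luminal groups alone, and 0.054 to 0.121 in 9 of the 12 fits that left out a single luminal array.

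Some basal markers were also higher in that population. Krt5 was 8.63, 7.92 and 8.94 in mutant luminal Sca1-negative arrays and 4.93, 5.24 and 5.47 in the controls, a difference of 3.29 (SE 0.43; limma, adjusted p = 0.000572). Krt14 differed by 2.46 (SE 0.42; adjusted p = 0.00571). The mean of 10 basal markers ranged from 6.36 to 6.88 in the mutant arrays and from 5.18 to 5.38 in the controls, and 3 of the 10 passed the test, all higher. In the 12 basal arrays Grb10 ranged from 4.53 to 5.42, below every mutant luminal Sca1-negative array. The part of cell composition in the Grb10 difference was not tested. Pik3ca, the mouse gene, differed by 0.90 in the same comparison (SE 0.21; adjusted p = 0.0593). Whether its probe set also reads the transgene is not known.

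Plagl1 separated the control luminal cells by Sca1. Control Sca1-negative arrays read 7.11, 6.74 and 7.93 and Sca1-positive arrays 5.75, 5.50 and 5.30. The groups did not overlap, and the level was 3.35-fold lower in Sca1-positive cells (difference -1.74, SE 0.35; limma, adjusted p = 0.00709). The call was lost in a fit of these 6 arrays alone (adjusted p = 0.0792). Of 11 luminal markers, 1 was higher and 2 were lower in the Sca1-positive cells, and the part of cell composition in the Plagl1 difference was not tested.

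In mutant luminal cells the same contrast of Plagl1 was -1.03 (SE 0.35) and did not pass (limma, adjusted p = 0.15). The Sca1-negative arrays read 7.02, 7.59 and 7.14, and the Sca1-positive ones 6.78, 6.40 and 5.47. They did not overlap, and a difference between genotypes in this contrast, 0.71 (SE 0.50), did not pass either (adjusted p = 0.821). In basal cells Plagl1 was 6.78, 7.06 and 6.46 in mutant GFP-positive arrays, above 5.05, 5.67 and 6.10 in mutant GFP-negative arrays and 6.32, 5.46 and 5.83 in control GFP-positive arrays. Those differences, 1.16 (adjusted p = 0.107) and 0.89 (adjusted p = 0.0947), missed the threshold of limma's test. Plagl1 was 0.66 higher in luminal than in basal cells of controls (SE 0.25; adjusted p = 0.0758) and 0.55 higher in mutants (SE 0.25; 0.17). The control difference passed without control basal GFP-positive replicate 1 (0.0493) or control luminal Sca1-negative replicate 2 (0.043), and the mutant one without luminal Sca1-positive replicate 3 (0.74, adjusted p = 0.0463).

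Cdkn1c, the gene of the cell cycle inhibitor p57, was highest in mutant basal GFP-positive cells. The arrays read 5.78, 5.54 and 5.65, above the other 21 arrays, whose highest value was 5.21. Control basal GFP-positive arrays read 5.11, 5.21 and 4.85, and mutant basal GFP-negative arrays 4.89, 4.66 and 5.03. The level was 1.52-fold higher than in control GFP-positive cells (difference 0.60, SE 0.11; limma, adjusted p = 0.00227). It was 1.73-fold higher than in mutant GFP-negative cells (difference 0.79, SE 0.11; adjusted p = 0.0002). Both comparisons share the mutant GFP-positive arrays.

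Against control basal GFP-negative cells, a reference added after the data were seen, Cdkn1c was 0.78 higher, and this too passed the test. In fits of the compared groups alone the calls were lost (adjusted p = 0.103 against controls and 0.0656 between GFP states). The mutant effect was 0.61 larger in GFP-positive than in GFP-negative cells (SE 0.15; limma, adjusted p = 0.063), which missed the threshold, though it passed without control GFP-positive replicate 2 (0.0246) or mutant GFP-negative replicate 3 (0.0419). The median difference over all genes was -0.10 in mutant against control basal GFP-positive cells. The mean of the 11 luminal markers ranged from 7.04 to 7.37 in mutant and from 6.67 to 7.11 in control GFP-positive basal arrays. Cdkn1c was 4.55 to 4.98 in luminal arrays. The part of cell composition in the Cdkn1c difference was not tested.

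Averaged over the gates, luminal cells had less Cdkn1c than basal cells. In mutants the difference was -0.52 (SE 0.08; limma, adjusted p = 6.2e-05), and in controls -0.26 (SE 0.08; adjusted p = 0.023). Most of the mutant difference lay with the GFP-positive basal cells described above, at a mean of 5.66. Mutant basal GFP-negative cells averaged 4.86, against 4.76 in Sca1-negative and 4.71 in Sca1-positive mutant luminal cells. The control call was lost with array weights (adjusted p = 0.0548), without control basal GFP-positive replicate 2 (0.0541) and without control luminal Sca1-negative replicate 2 (0.0611). Luminal and basal arrays overlapped in both genotypes.

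Ndn, the gene of necdin, was dim in most arrays and was brighter in mutant basal cells. Mutant GFP-positive arrays read 4.42, 4.71 and 4.36 and control GFP-positive arrays 3.91, 3.93 and 4.10. The groups did not overlap and the difference was 0.51 (SE 0.14; limma, adjusted p = 0.0252). The call was lost without control GFP-positive replicate 1 (adjusted p = 0.0734), mutant GFP-positive replicate 1 (0.0535) or replicate 2 (0.105), against control GFP-negative cells (0.103), and with the compared arrays alone (0.124). In GFP-negative cells, at 4.10, 4.80 and 4.62 against 4.26, 3.96 and 3.95, the difference of 0.45 had an adjusted p of 0.491. It passed without mutant GFP-negative replicate 1, at 0.66 (adjusted p = 0.0321).

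Ndn did not differ between the GFP states of mutant basal cells beyond the spread (difference -0.01, 95% interval -0.30 to 0.28). Every mutant luminal array lay below every mutant basal array, with a difference of -0.61 (SE 0.10; limma, adjusted p = 0.000196). In controls the luminal minus basal difference was -0.08 (95% interval -0.28 to 0.13). All luminal group means were below the dim line, so these luminal levels are close to background.

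Mest varied more between replicates than any other member, with SDs up to 1.74 within a group. Mutant basal GFP-negative arrays read 7.63, 5.34 and 4.22, and control basal GFP-negative arrays 4.79, 6.31 and 4.36. Mutant basal GFP-positive arrays, at 5.84, 5.76 and 7.03, lay above the control GFP-positive arrays, at 4.66, 4.41 and 4.32. That difference of 1.74 (SE 0.65) missed the threshold (limma, adjusted p = 0.0777).

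Among luminal arrays Mest was dim in 11 of 12, and the exception was mutant Sca1-negative replicate 2, at 5.52. In mutants it was 3.14-fold lower in luminal than in basal cells (difference -1.65, SE 0.46; limma, adjusted p = 0.0175). The call was lost without mutant basal GFP-positive replicate 3 (adjusted p = 0.0541) and with mutant arrays alone (0.0732). Mir335, a microRNA gene inside Mest, had group means of 3.88 to 4.16, dim in all 8 groups.

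Igf2, the growth factor of the group, was near or under the dim line in every population. Its 24 values ran from 4.10 to 4.96, and 3 of 8 group means lay above that line. In mutant basal cells, GFP-positive arrays read 4.52, 4.96 and 4.27 and GFP-negative arrays 4.20, 4.18 and 4.10. They did not overlap, but the difference of 0.42 did not pass (SE 0.14; limma, adjusted p = 0.173). It passed without mutant GFP-positive replicate 3, at 0.58 (adjusted p = 0.0439). Mir483, inside Igf2, had group means of 5.12 to 5.95.

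Dlk1 read between 4.97 and 5.50 in 23 arrays, and 6.25 in control basal GFP-positive replicate 1. The other arrays of that group read 5.08 and 5.50. Mutant basal GFP-positive cells were lower by 0.45 on average (difference -0.45, SE 0.19; limma, adjusted p = 0.108), and the groups overlapped. Without control GFP-positive replicate 2 the difference was -0.71 (adjusted p = 0.00539), and with array weights -0.55 (0.0413). Without the same control replicate, Dlk1 was also lower in control luminal than in control basal cells, at -0.30 (adjusted p = 0.0486); with all arrays that difference was -0.17 (0.416).

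Meg3, the non-coding RNA next to Dlk1, read 5.22, 5.30 and 4.53 in control basal GFP-positive cells and 5.14, 4.30 and 4.66 in mutant basal GFP-positive cells. The ranges overlap, and the difference of -0.32 (SE 0.19) had an adjusted p of 0.253. Its luminal minus basal difference in controls, -0.32 (SE 0.13), also did not pass (limma, adjusted p = 0.104), and passed without control GFP-positive replicate 3, at -0.44 (0.0117). The same 2 control arrays that were highest for Peg3, replicates 1 and 2, were highest for Meg3.

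**Figure D3:**
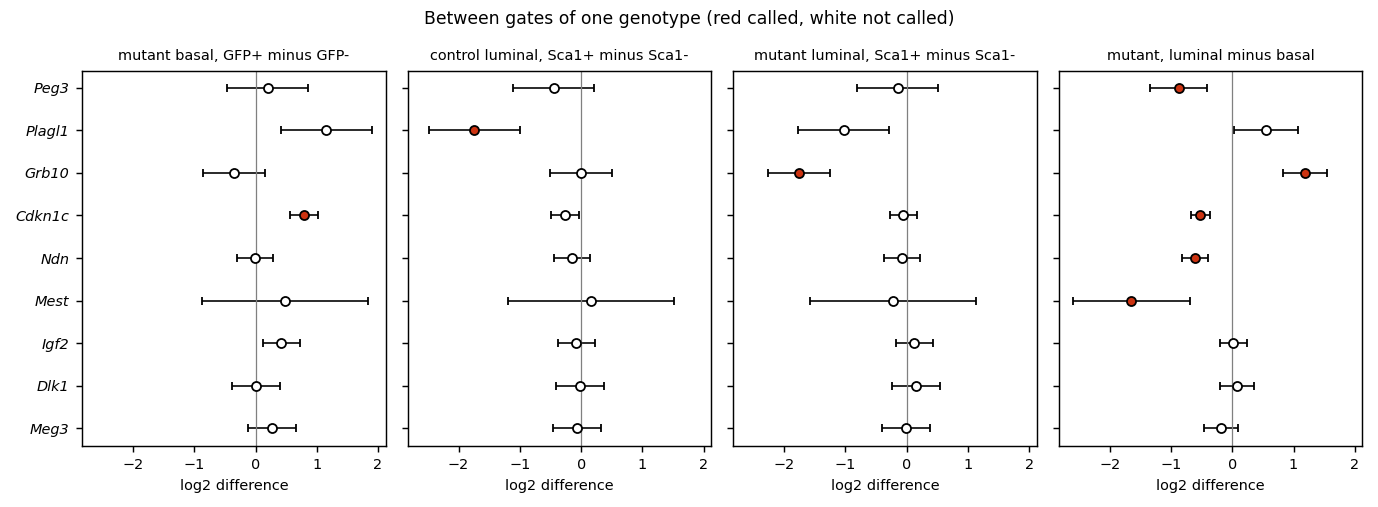
Log2 difference (horizontal axis) of each gene (vertical axis) between sorted populations of the same genotype, with 95% intervals from limma. Red circles passed an adjusted p of 0.05 and white circles did not. Cdkn1c is red for GFP at 0.79, Plagl1 for Sca1 in controls at -1.74, Grb10 for Sca1 in mutants at -1.76, and Peg3, Grb10, Cdkn1c, Ndn and Mest for luminal against basal mutant cells.

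Other genes listed as imprinted moved in both directions in mutant basal GFP-positive cells. The parental copies were not read apart, so whether these genes are imprinted in these cells was not measured. Of 65 listed, 53 were measured; 4 rose and 4 fell against control GFP-positive cells (15.1% of the list and 12.6% of all genes), with a median difference of -0.13 against -0.10. Dcn, the gene of the matrix proteoglycan decorin, rose by 4.30 (SE 0.69; limma, adjusted p = 0.000901). Gab1, a docking protein for PI3 kinase signalling, rose by 0.76 (SE 0.18), and Rian, a non-coding RNA of the Dlk1 and Meg3 locus, by 0.52 (SE 0.14). Peg12, a neighbour of Ndn, fell by 0.40 (a difference of -0.40, SE 0.12). The count was 1 to 12 over the alternatives, and Peg12 lost its call in 8 of 15 of them. Gab1 and Rian lost theirs in 5 each, both without control GFP-positive replicate 1 (0.0601 and 0.0798) or mutant GFP-positive replicate 2 (0.0615 and 0.113), and Rian without mutant replicate 3 (0.09). Dcn against control GFP-negative cells was 1.79 higher and did not pass (adjusted p = 0.193).

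Dcn is itself in the list of 12 fibroblast markers. In mutant against control basal GFP-positive cells 2 of these markers rose, Dcn among them, and 1 fell. Of the 12, 7 were dim in mutant basal GFP-positive cells. In basal GFP-negative cells 0 of 53 imprinted genes passed, where 12 of 19937 genes did. In luminal Sca1-negative cells 2 of 53 fell (3.77%, against 0.727% of all genes): Dcn by 3.29 (a difference of -3.29, SE 0.69; limma, adjusted p = 0.0284) and Rtl1, the retrotransposon-like gene of the Dlk1 locus, by 0.37 (-0.37, SE 0.07; 0.0173). In luminal Sca1-positive cells 1 of 53 rose and 2 fell (5.66%, against 0.777% of all genes). Cd81, a tetraspanin gene near Igf2, rose by 1.48 (SE 0.31; adjusted p = 0.0293). Pon3, a paraoxonase gene, and Dcn differed by -1.94 (0.029) and -3.01 (0.0479). Each of these luminal calls was lost in at least 4 of 15 alternatives.

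Between the GFP states of mutant basal cells, 2 of 53 imprinted genes passed (3.77%, against 2.51% of all genes). Rian was 0.63 higher in GFP-positive cells (SE 0.14; limma, adjusted p = 0.0214). Zim1, the imprinted zinc finger gene next to Peg3, was lower (difference -0.33, SE 0.08; adjusted p = 0.0409), at a mean of 3.89 against 4.22, both dim. With the compared groups alone both calls were lost (0.334 and 0.154). Rian also lost it without GFP-negative replicate 1 (0.104) or 3 (0.0621), or GFP-positive replicate 2 (0.13) or 3 (0.0979). Zim1 lost it without GFP-negative replicate 1 (0.167) or 2 (0.108), or any GFP-positive replicate (0.0882 to 0.136). In control luminal cells 4 of 53 imprinted genes were higher and 3 lower in Sca1-positive cells (13.2%, against 3.69% of all genes). Pon3 was 2.77 higher, Copg2, a coat protein gene next to Mest, 1.37 higher and Rasgrf1, a Ras exchange factor, 1.89 higher, while Gab1 was lower (difference -0.97). Rasgrf1 lost its call without control Sca1-negative replicate 2 (0.0589) or Sca1-positive replicate 3 (0.0574). Rasgrf1 (2.50) and Gab1 (-1.19) were the 2 genes called in the mutant luminal cells (3.77%, close to the 3.66% of all genes).

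**Figure D4:**
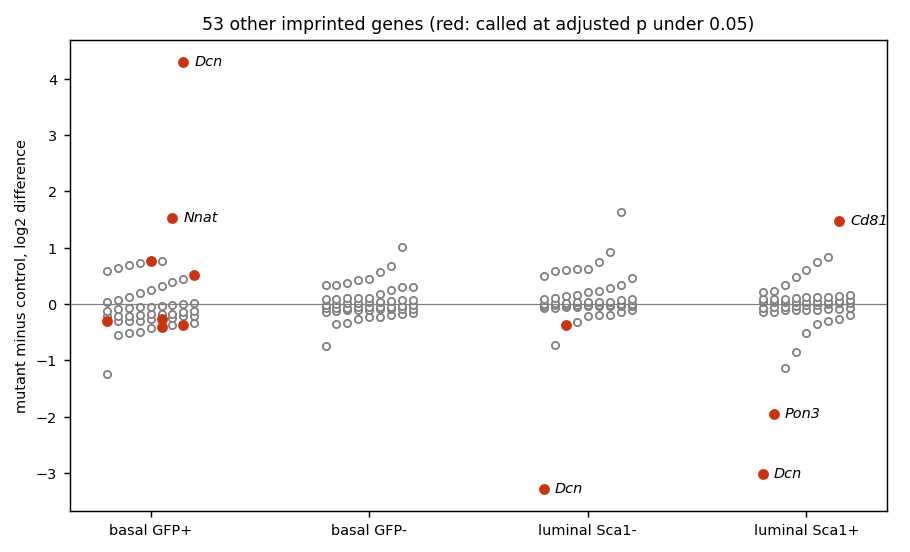
Mutant minus control log2 difference (vertical axis) of 53 other imprinted genes in the 4 sorted populations (horizontal axis). Each circle is a gene, spread sideways for visibility; red circles passed an adjusted p of 0.05 in limma, and those beyond 1 are named. Dcn is at 4.30 in basal GFP-positive cells and at -3.29 and -3.01 in the luminal gates, and no gene is red in basal GFP-negative cells.

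Genes of IGF2 reception and signalling changed in the same basal cells. Of 22 measured of 24 listed, 4 rose and 3 fell in mutant against control basal GFP-positive cells (31.8% of the list, against 12.6% of all genes). Igfbp4, a secreted IGF-binding protein, rose by 3.25 (SE 0.40; limma, adjusted p = 7.92e-05), and Igfbp2, another, by 2.25 (SE 0.26; 4.32e-05). Igf1r, the gene of the receptor for both IGFs, fell by 2.03 (a difference of -2.03, SE 0.31; 0.000613). Pik3ca rose by 1.09 (SE 0.21; 0.00435).

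These differences depended on the control reference to unequal degrees. Against control basal GFP-negative cells Igfbp2 differed by 0.26 (adjusted p = 0.664) and Pik3ca by 0.38 (0.394), while Igfbp4 differed by 1.91 (0.0107). Between the GFP states of mutant basal cells Igf1r was the only gene of the list to pass (4.55%, against 2.51% of all genes). It was 1.89 lower in GFP-positive cells (difference -1.89, SE 0.31; limma, adjusted p = 0.00149). With the compared groups alone this call was lost (adjusted p = 0.0994). The calls of Igf1r (0.052) and Pik3ca (0.0923) against control GFP-positive cells were lost in such a fit too. In basal GFP-negative cells 0 of 22 passed.

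In mutant luminal cells the calls were binding proteins. Sca1-negative cells gave 1 of 22 (4.55%, against 0.727% of all genes) and Sca1-positive cells 2 of 22 (9.09%, against 0.777%). Igfbp3 was 4.38 higher in Sca1-negative cells (SE 0.73; limma, adjusted p = 0.00469). In Sca1-positive cells Igfbp5 was 3.53 higher (SE 0.41; 6.49e-05) and Igfbp7 2.01 higher (SE 0.45; 0.0425). Igfbp7 lost its call in 6 of 15 alternatives: without control Sca1-positive replicate 2 (0.158) or 3 (0.248), without mutant Sca1-positive replicate 1 (0.218) or 2 (0.113), without the control basal GFP-positive arrays (0.0755) and with the compared groups alone (0.445). Igfbp5 lost it only in the last of these fits (0.191), and Igfbp3 in none. All 3 are basal-high in controls, with luminal minus basal differences of -6.03, -2.98 and -3.63, although control Sca1-negative luminal cells also had high Igfbp5. Igfbp5 averaged 10.9 there and 5.86 in control Sca1-positive cells (difference -5.01, SE 0.41; limma, adjusted p = 7.6e-07), and Igfbp7 7.38 and 5.08 (-2.30, SE 0.45; 0.00566). Krt5 read 7.98, 5.18 and 6.28 in mutant Sca1-positive arrays and 5.08 to 5.51 in the controls, and 0 of 10 basal markers passed there; the part of other luminal or basal cells in these differences was not tested. Over luminal against basal cells, 3 of 22 were higher and 11 lower in controls, and 1 higher and 9 lower in mutants (63.6% and 45.5% of the list, against 19.3% and 15.4% of all genes). Igfbp2 had the smallest p of the list in both, with differences of -3.51 and -4.49.

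Of 28 relatives and partners of the members, 27 were measured, and 5 rose and 3 fell in mutant against control basal GFP-positive cells (29.6%, against 12.6%). Maged1, a MAGE family gene related to Ndn, rose by 1.12 (SE 0.21; limma, adjusted p = 0.00364), and Maged2 by 0.90 (SE 0.23; 0.0194). Notch1, the receptor gene whose signalling Dlk1 is known to modulate, rose by 1.47 (SE 0.28; 0.0041). Hmga2, a chromatin protein gene, fell by 0.35 (a difference of -0.35, SE 0.10; 0.0268) from a control mean of 4.57 to a dim 4.22. The count ranged from 1 to 8 over the alternatives, and Notch1 passed in all 15. Maged1 lost its call in 1 alternative, against control GFP-negative cells (adjusted p = 0.0706). Maged2 lost it in 5, among them without control GFP-positive replicate 1 (0.0528) and without mutant GFP-positive replicates 1 (0.0629) and 3 (0.0795). Hmga2 lost it in 7, with quantile normalization (0.131), without dim genes (0.0608), and without control GFP-positive replicate 3 (0.125) or mutant GFP-positive replicates 1 (0.071) and 2 (0.0936) among them.

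Notch1 and Dnmt3a, a DNA methyltransferase gene, were the 2 genes of that list called between the GFP states of mutant basal cells. They are 7.41% of the list, against 2.51% of all genes. Notch1 was 2.13 higher in GFP-positive cells (SE 0.28; limma, adjusted p = 0.00018) and Dnmt3a 0.80 higher (SE 0.17; 0.0112), a call lost without GFP-negative replicate 3 (0.0574). Notch1 was also higher in luminal than in basal cells, by 1.41 in controls and 1.06 in mutants. No gene of the list passed in the luminal mutant comparisons or in basal GFP-negative cells.

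The genes whose 8 group means were most like those of Peg3, among 5292 genes whose group means spanned at least 1 log2 unit, were Traf5, Brinp3, Il34, Rab39b and Mt4, with Pearson correlations of 0.977, 0.966, 0.962, 0.961 and 0.955. Over 8 means that share arrays and a single high group, these are descriptions. At the level of arrays the likeness was partial. Traf5, a signalling adaptor gene, read 4.82, 4.49 and 6.48 in the 3 control basal GFP-positive arrays, highest in replicate 3, where Peg3 was lowest. Mt4, a metallothionein gene, read 4.49, 7.94 and 4.49, and Il34, a cytokine gene, 4.91, 6.90 and 4.94, both high in replicate 2 alone. Rab39b, at 4.92, 5.35 and 4.07, was high in the same 2 arrays as Peg3. Among the members, Meg3 had a correlation of 0.862 with Peg3, Dlk1 0.76, Igf2 0.562 and Cdkn1c 0.501. Ndn and Mest were at 0.259 and 0.234, Plagl1 at -0.179 and Grb10 at -0.38.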

How the data were processed

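RNA from 24 sorted samples was read on Affymetrix mouse Gene 1.0 ST arrays, 8 groups of 3. The authors deposited 1 value per probe set and array, read here as log2 from its range (2.59 to 13.5), since the scale is not stated. The submitters' processing notes name affy, without a version or role, and the normalization is not given in the sources used here. They were used unchanged. Of 34760 probe sets, 21640 had 1 gene symbol, giving 19937 genes, each read from its brightest probe set. H19 was not analysed here.

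A model with 8 group means was fitted over all 24 arrays with limma 3.58.1 in R 4.3.3 (constant variance prior, 16 residual degrees of freedom). Tests were two-sided, and p-values were adjusted by Benjamini and Hochberg over all genes within each of 11 comparisons. A gene was called at an adjusted p under 0.05. The fit was tested on simulated data. No pair of arrays was identical (0 pairs). Deviations of same-numbered arrays from their group means correlated at -0.082 to 0.18 (median 0.027), so the numbers were not used as pairs.

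The members and lists were chosen with earlier results of these data known. Named genes were the members, sorting markers, up to 4 called genes per list and comparison by p, and the 5 genes most like Peg3. Alternatives were averaged probe sets, quantile normalization, a filter on dim genes, array weights, other variance priors, the replicate block, the compared groups alone and each array left out. Added after seeing the data were a fit without control basal GFP-positive arrays and control basal GFP-negative cells as the reference. The number of arrays limits the precision. Start-site sequences are RefSeq's on GRCm38.p6.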

Additional observations from a re-analysis of the deposited data

Results flagged for a closer look

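The mutant effect on Grb10 differed between the luminal gates by -1.75 (Sca1-positive minus Sca1-negative, SE 0.34; limma, adjusted p = 0.0425), with the sensitivity to single arrays given in the report. Among genes of the lists, 6 had a mutant effect that differed between the basal GFP states, each given as GFP-positive minus GFP-negative from the same limma fit. The share called was 1.89% of the imprinted, 18.2% of the IGF2 and 3.7% of the relatives list, against 1.07% of all genes. Dcn differed by 4.64 (adjusted p = 0.0247) and Igfbp4 by 2.80 (0.0204). Igfbp2 differed by 2.19 (0.00539), Pik3ca by 1.35 (0.0361) and Dnmt3a by 1.12 (0.0247). Igf1r differed by -2.20 (0.0183). Over 20 alternatives each, Pik3ca lost its call in 13 (adjusted p 0.0508 to 0.239), with 8 of the 12 single arrays left out among them, and Dnmt3a in 9 (0.0523 to 0.0682), with 7 of the 12. Dcn lost it in 5, without control GFP-negative replicate 2 (0.059), control GFP-positive replicate 3 (0.0514), mutant GFP-positive replicate 2 (0.0563) or 3 (0.0547), and with the compared groups alone (0.169). Igfbp4 lost it in 2, without mutant GFP-positive replicate 1 (0.0549) and with the compared groups alone (0.235). Igfbp2 (0.149) and Igf1r (0.192) lost it in that last fit only. All 6 differences rest in part on the control basal GFP-positive arrays, which also chose Peg3.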

How the results depend on the processing

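No called result reversed. Peg3, untested in mutant against control basal GFP-positive cells, went from -1.64 to 0.54 with control GFP-negative cells as the reference, and 70 values of uncalled results had another sign. Of 236 alternative values of the 13 called member results, 210 kept the call and sign, and 11 of 1377 values of uncalled results became called. With only the compared groups in the fit, the members called were 0 for mutant against control basal GFP-positive cells (2 with all arrays) and 0 for luminal Sca1-negative cells, for GFP in mutant basal cells, for Sca1 in control luminal cells and for the luminal difference of mutant effects (1 each with all arrays). The last was also 0 after quantile normalization, and 0 again in a fit that omitted the control basal GFP-positive arrays. Against control basal GFP-negative cells, 1 member was called in mutant basal GFP-positive cells. Control luminal against basal cells gave 0 with array weights. With the replicate block the counts stayed at 2, 0, 1, 0, 1, 1, 1, 1, 5, 0 and 1, in the order of the report. Over all genes, deviations of same-numbered arrays correlated little (median 0.027, up to 0.18). Single genes could still follow the number. Mt4 was high in replicate 2 alone of both the control and the mutant basal GFP-positive cells (7.94 and 6.55).

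Leaving out 1 array in turn gave 1 to 3 members for mutant against control basal GFP-positive cells and 0 to 1 for GFP-negative cells. It gave 1 to 2 for GFP in mutant basal cells and for control luminal against basal cells, and 0 to 1 for both differences of mutant effects. The control difference of Peg3 ranged from 1.96 to 2.60. Counts over all genes moved more: for mutant against control basal GFP-positive cells 2504 genes were called, 1213 after quantile normalization, 1360 without dim genes, 234 with the compared groups alone and 641 against control GFP-negative cells. Quantile normalization moved the share of higher calls in control luminal against basal cells from 51.1% to 39.8%. The causes were not tested. Igf2, Ndn and luminal Mest lie near the dim line, which limits what their differences can show.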

Other observations

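Some other imprinted genes differed between the luminal and basal gates, in both directions. Rasgrf1, a Ras exchange factor gene, was 2.01 higher in luminal than in basal cells of controls (SE 0.28; limma, adjusted p = 3.22e-05) and 1.79 higher in mutants (SE 0.28; adjusted p = 0.000129). In controls 8 of 53 imprinted genes were higher and 8 lower (30.2%, against 19.3% of all genes), and in mutants 6 were higher and 4 lower (18.9%, against 15.4%). Dcn had opposite signs: 2.71 higher in luminal cells of controls (SE 0.49) and lower in those of mutants (difference -2.43, SE 0.49). Slc22a18, a transporter gene near Cdkn1c, was 1.66 higher in luminal cells of mutants (SE 0.25; adjusted p = 8.65e-05).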
